A study of Mus musculus with 24 samples.

Results

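Collagen genes were taken as every gene of the raw count table whose name is made of Col, a number, the letter a and a number. There were 44 of them among 24421 genes. Frozen melanomas of TN mice had been measured by RNA sequencing, with 6 tumours for each of the genotypes NRAS 61K/K, 61L/L, 61H/H and 61R/R, all on a C57BL/6 background. TN mice carry Tyr::CreERT2, a tamoxifen-activated Cre recombinase under the promoter of the pigment enzyme tyrosinase, and on both copies of Nras a stop cassette before a gene altered at codon 61, so that lysine, leucine, histidine or arginine is made in melanocytes after 20 mM 4-hydroxytamoxifen on postnatal days 1 and 2. The 61R/R mice are the parent line and the other alleles were edited from it, and whether each mouse also received ultraviolet light is not in the labels. Whole tumours were ground, so host cells of the skin and stroma were sequenced together with the melanoma cells.

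Collagens are secreted or membrane proteins in which chains of repeated glycine triplets wind into a rope-like helix. Fibrillar chains such as type I and type III form the cables of skin and of tumour stroma and are made mainly by fibroblasts. Type IV chains form the sheet of basement membranes under epithelia and around vessels, type VI forms beaded filaments, fibril-associated chains decorate the cables, and type XVII and type VII anchor the epidermis to the dermis. Some types, such as type I and type IV, need more than 1 kind of chain, and the partner genes of these are often read together.

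Libraries held 31.9 to 43.8 M counted reads. Of the 44 collagen genes 43 had enough reads to be tested, and Col9a1, a cartilage chain, did not. The lists of markers for 9 kinds of cell were read beside them. Of the 6 melanocyte genes (Mitf, Sox10, Pmel, Dct, Tyr and Mlana) none was at 0 in every tumour of a genotype, and their summed level ran from 157 to 434 CPM in 61K/K, 319 to 539 CPM in 61L/L, 513 to 1107 CPM in 61H/H and 281 to 695 CPM in 61R/R tumours (CPM, counts per unit of sequencing depth after TMM scaling). Most of that sum was Sox10, and Tyr had medians of 1.67, 2.39, 0.449 and 1.00 CPM in the same order. Column names of the table come in 2 styles, and the 18 libraries of the more frequent style are used below as a second reading of each collagen call. Markers and genes that process collagen were not read again in them. The rarer style was that of 61K/K replicates 1, 3 and 6, 61L/L replicate 6, 61H/H replicate 6 and 61R/R replicate 3. The 18 libraries thus hold fewer 61K/K tumours than tumours of any other genotype. Replicate 4 of 61H/H stands apart from the other 61H/H tumours in several of the genes below, and it shares the number in its title with replicate 5, and the labels do not say whether both came from 1 mouse. Titles of 61K/K, 61L/L and 61H/H tumours carry the code of their own genotype, and those of 61R/R tumours carry 61K, 61L or 61P, 2 each, and never 61H. In 61H/H against 61R/R, and against 61K/K, the genotype cannot be told apart from the title code.

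Collagen genes took 4.55%, 5.03% and 6.08% of all reads in the lowest, the median and the highest 61K/K tumour. The same shares were 4.06%, 4.85% and 5.78% in 61L/L, 3.25%, 4.31% and 5.26% in 61H/H and 3.41%, 3.76% and 5.41% in 61R/R tumours. The 4 genotypes overlapped, and no test was run on these shares. Col1a1, Col1a2 and Col3a1 together made up 45.3% to 66.4% of the collagen reads of a tumour.

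**Figure D1:**
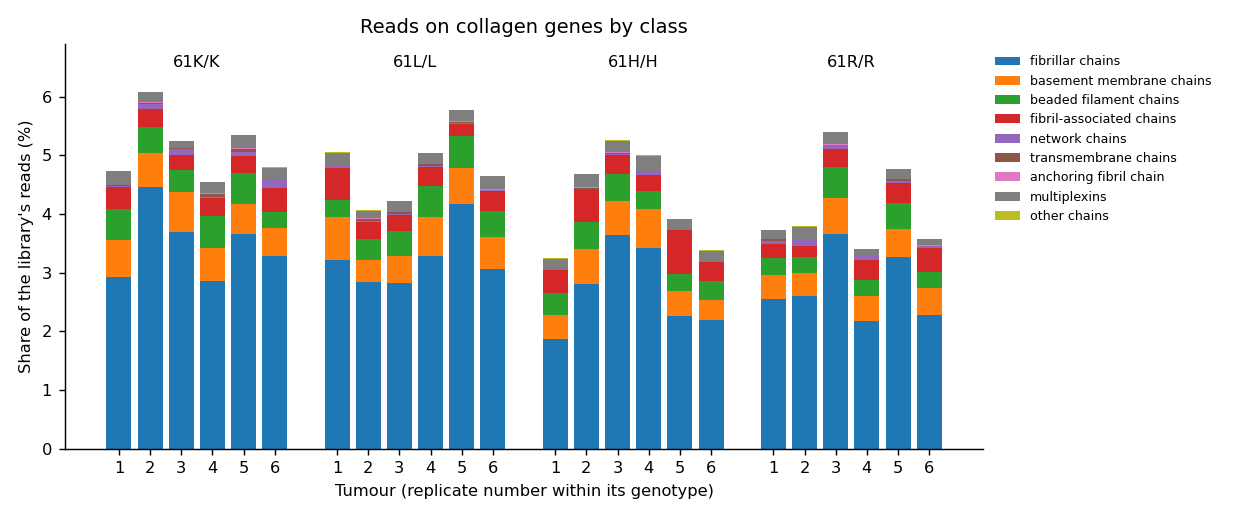
Share of each library's reads that fell on collagen genes, stacked by class, for the 6 tumours of each genotype (horizontal axis, replicate numbers; vertical axis, percent of reads). Fibrillar chains are the tallest block of every bar, and the bars run from 3.25% to 6.08%.

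Levels of different genes were compared per length, in TPM, which are counts divided by gene length and scaled to the same total in each library. The chains of type I and type III led: over all 24 tumours Col1a1 had a median of 5590.4 TPM, Col3a1 of 5568 TPM and Col1a2 of 3094 TPM. By its median Col1a1 ranked 5 among all genes of the table. The basement membrane chains Col4a1 and Col4a2 followed at 1286 and 894 TPM, with Col6a1, a chain of the beaded filaments, between them at 1027 TPM. In all, 17 of the 44 had a median of at least 100 TPM, 20 lay between 1 and 100 TPM, and 7 lay under 1 TPM. The 7 were Col9a2, Col22a1, Col6a4, Col25a1, Col2a1, Col9a1 and Col19a1. Neighbours in this order mostly overlapped: Col1a1 ran from 2076 to 10237 TPM and Col3a1 from 3657 to 8802 TPM.

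The order also held a chain less often met in skin. Col20a1, a fibril-associated chain named here after its values were seen, was seventh, with a median of 711 TPM and a range of 141 to 3475 TPM. It is not one of the chains that vary little: the standard deviation (SD) of its log2 CPM over the 24 tumours was 1.35.

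**Figure D2:**
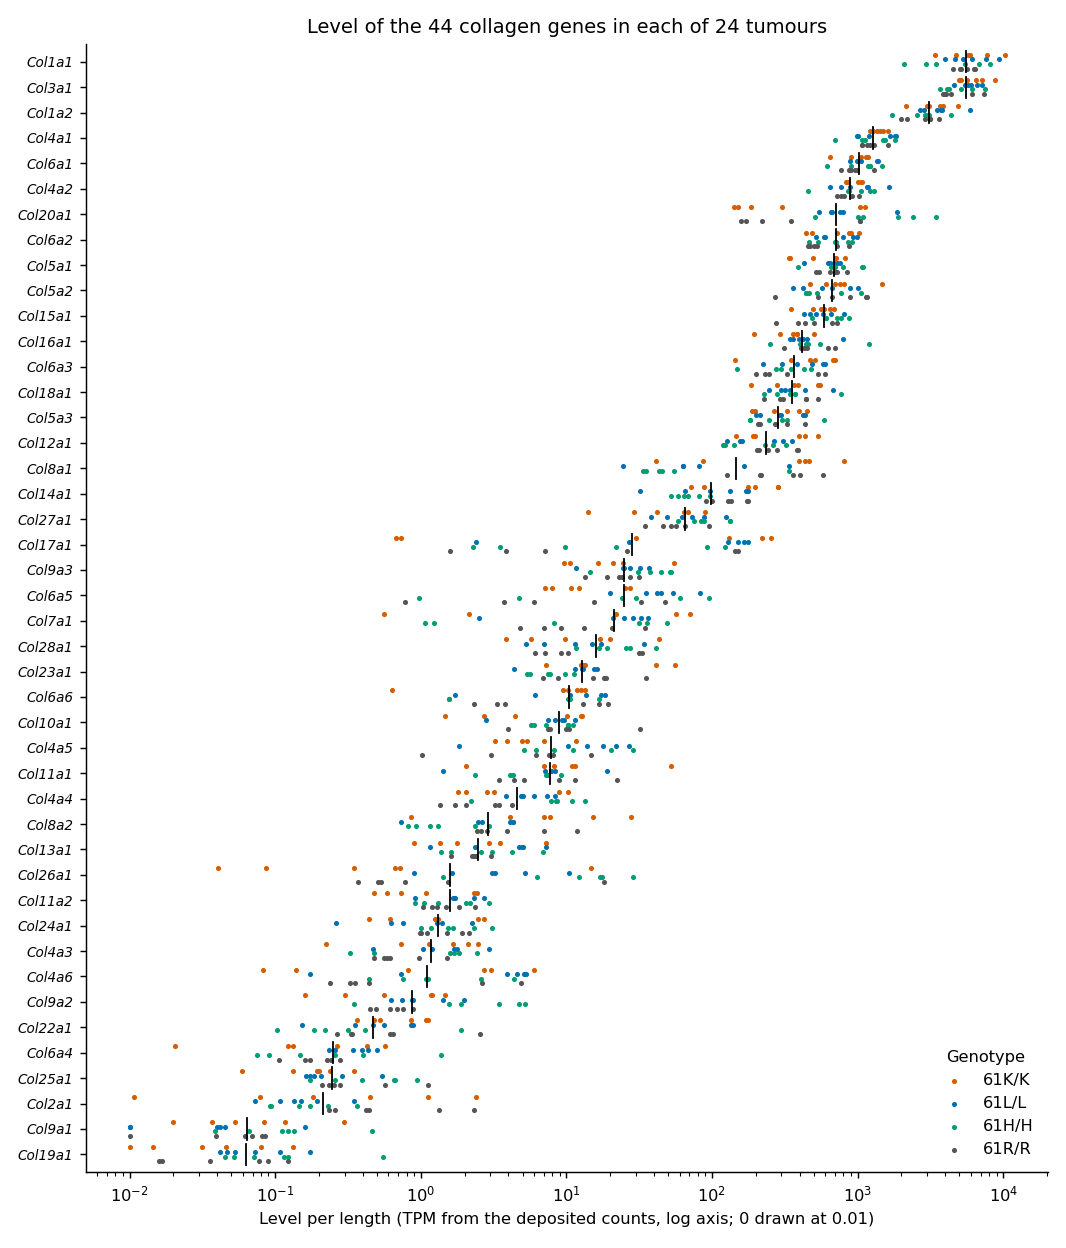
Level of each of the 44 collagen genes in the 24 tumours, in TPM on a log axis, ordered by median (black line). Each point is a tumour coloured by genotype, and Col1a1, Col3a1 and Col1a2 stand at the top above 1000 TPM in every tumour.

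Collagen genes differed in how steady they were from tumour to tumour. Col6a1 varied least, with an SD of log2 CPM of 0.26, and Col4a1, Col4a2, Col5a1 and Col1a2 lay between 0.34 and 0.37. Col17a1 varied most, with an SD of 2.80, followed by Col26a1 at 2.35, Col7a1 at 1.92 and Col6a5 at 1.82. The median SD was 0.81 over the 43 collagen genes tested and 0.46 over all 17214 genes tested.

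The comparisons asked which collagen genes differ between tumours with different residues at codon 61. Calls are those of the edgeR quasi-likelihood test at a Benjamini-Hochberg adjusted p under 0.05 over all genes. Against 61R/R, no collagen gene was called in 61K/K or in 61L/L tumours, where 0 (percent called 0%) of all genes tested were called. Whole tumours were sequenced, so fewer cells of a type and less RNA per cell cannot be told apart in any of these comparisons. At an unadjusted p under 0.05 there were 4 collagen genes in each of these comparisons, beside 5.15% of all genes tested in 61K/K and 5.55% in 61L/L, and DESeq2 called 0 in both. In 61H/H against 61R/R, 2 of 43 collagen genes were called higher, Col9a2 and Col4a4, and 0 lower, beside 2.02% of all genes tested (1.26% higher and 0.761% lower). Between 61H/H and 61K/K, 4 of 43 were called, 1 higher (Col9a2) and 3 lower (Col8a2, Col14a1 and Col23a1), beside 9.36% of all genes (4.29% higher and 5.07% lower). The share of collagen genes called in that comparison was near this background. No collagen gene was called between 61H/H and 61L/L or between 61L/L and 61K/K, where again 0% of all genes were called. There 2 and 6 of the 43 collagen genes had an unadjusted p under 0.05, beside 11.2% and 8.09% of all genes, and DESeq2 called 0. In the joint test for any difference among the 4 genotypes, Col8a2 and Col9a2 were called, beside 2.72% of all genes.

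Median log2 fold changes over the 43 collagen genes were 0.26 in 61K/K, 0.24 in 61L/L and 0.20 in 61H/H, each against 61R/R. Over all genes tested the corresponding medians were 0.011, -0.0083 and 0.011. The 3 comparisons share the 61R/R tumours. Values above 0, few of which passed the test, were found for 32 of 43 collagen genes in 61K/K, 28 in 61L/L and 29 in 61H/H, beside 51.6%, 48.6% and 51.5% of all genes. Between 61H/H and 61K/K the median was -0.058. By class, the medians of 61H/H against 61R/R ran from -1.64 for the 3 network chains to 0.54 for the 6 basement membrane chains, among classes of at least 3 tested genes. The 38 tested genes called in no comparison lay between -2.09 (Col2a1) and 2.05 (Col26a1) in 61H/H, -1.05 (Col25a1) and 0.98 (Col7a1) in 61K/K, and -2.27 (Col2a1) and 1.47 (Col6a5) in 61L/L, each against 61R/R.

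**Figure D3:**
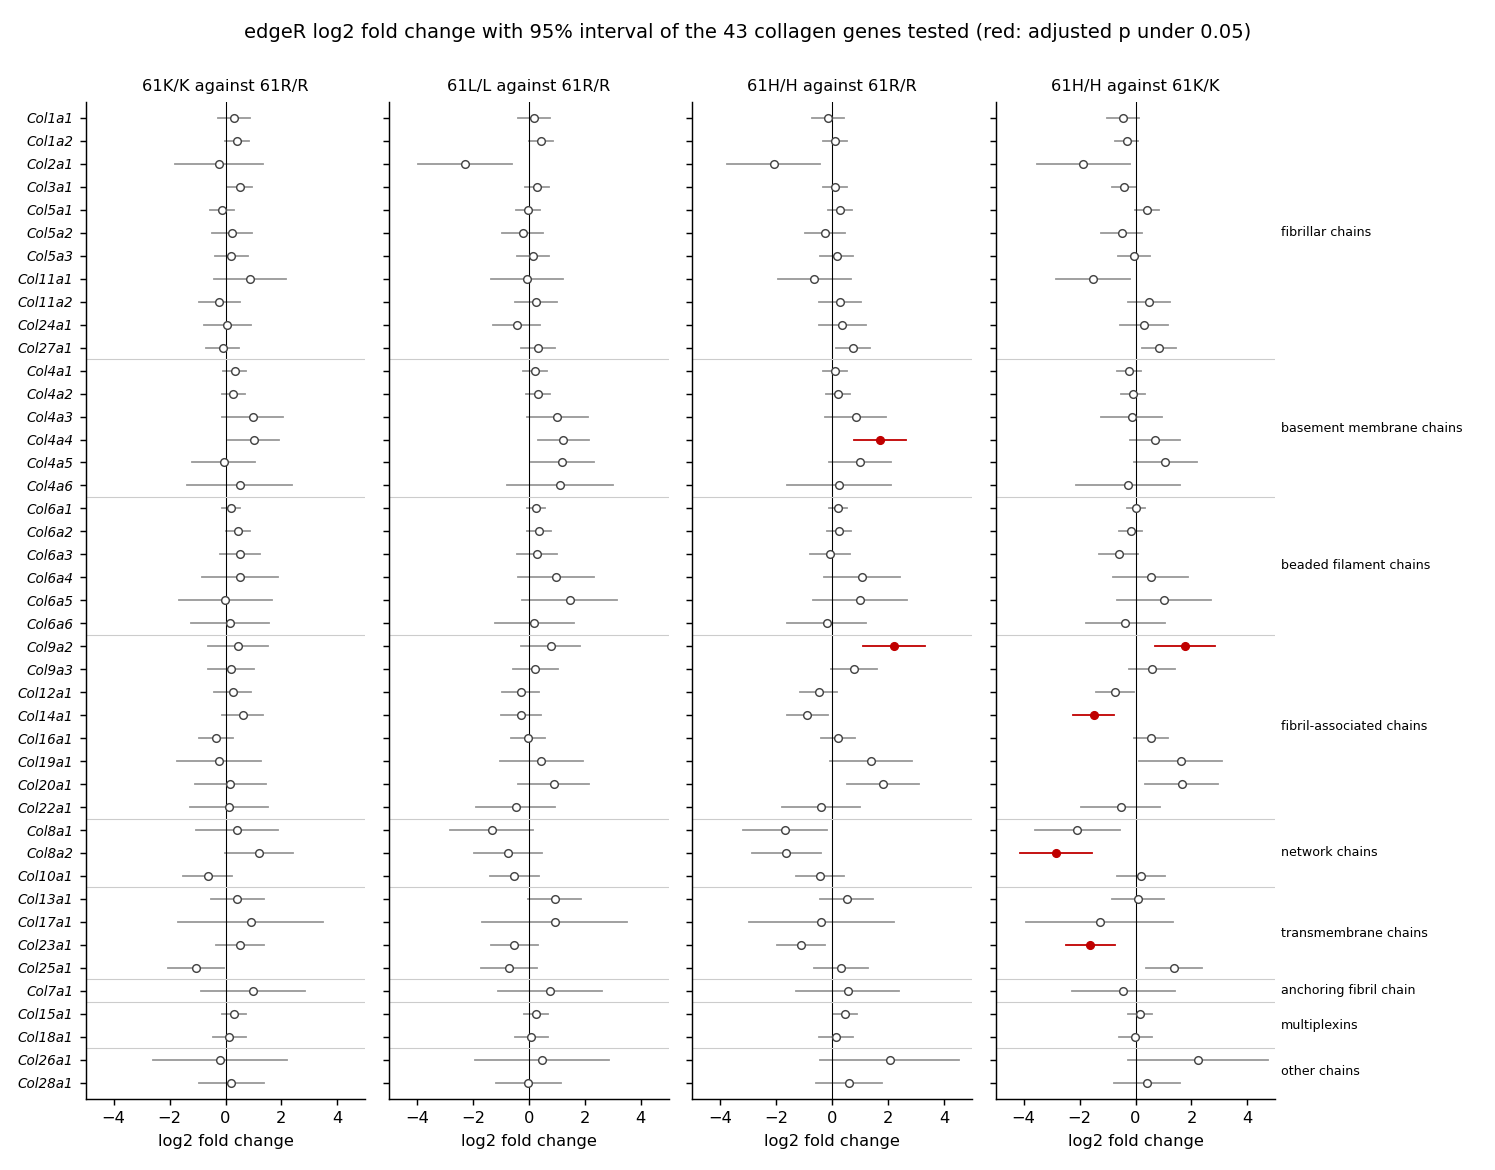
Log2 fold changes (horizontal axis) of the 43 collagen genes tested, by class, with 95% intervals from the edgeR fit, for 61K/K, 61L/L and 61H/H against 61R/R and for 61H/H against 61K/K. Red marks an adjusted p under 0.05: Col4a4 and Col9a2 in the third panel, and Col9a2, Col14a1, Col8a2 and Col23a1 in the fourth.

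Of the 11 fibrillar chains none was called by edgeR in any comparison, with 2 at an unadjusted p under 0.05 in 61H/H against 61R/R and 3 against 61K/K, beside 15.8% and 26.3% of all genes. DESeq2 called 1 of them in 61H/H against 61K/K, Col27a1, a fibrillar chain of cartilage named here after its values were seen, and another, Col2a1, in the joint test. Col1a1, which encodes the alpha 1 chain of type I collagen (chromosome 11, 94936270 to 94951856, mm10), had 7177, 10353 and 15772 CPM in the lowest, the median and the highest 61K/K tumour. It had 6895, 9247 and 14011 CPM in 61L/L, 3967, 6964 and 14123 CPM in 61H/H and 7248, 8269.6 and 10541 CPM in 61R/R tumours. The 61H/H tumours thus spanned more than the 61R/R tumours on both sides, and the log2 fold change of 61H/H against 61R/R was -0.15 ± 0.27 (SE, adjusted p = 0.855, 95% interval -0.72 to 0.41). Within the 18 libraries of 1 column style that value was 0.025.

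Col1a2, the alpha 2 chain of type I (chromosome 6, 4505697 to 4541543), had 4965, 6757 and 8274 CPM in 61K/K, 4837, 6394 and 9713 CPM in 61L/L, 3615, 5127 and 7590.5 CPM in 61H/H and 3483, 5075 and 6189 CPM in 61R/R tumours. Its log2 fold change against 61R/R was 0.42 ± 0.20 in 61K/K (SE, adjusted p = 0.774) and 0.44 ± 0.20 in 61L/L (adjusted p = 0.873). In 61H/H against 61R/R it lay between -0.068 and 0.14 when a library was left out, and it was not called. Chromosome 6, where Col1a2 lies, had a median log2 fold change over its 876 tested genes of 0.051 in 61K/K, 0.25 in 61L/L and 0.31 in 61H/H, each against 61R/R, and the part of that shift in the level of Col1a2 was not tested. Col3a1, the type III chain of elastic skin and vessels (chromosome 1, 45311538 to 45349706), had 10200.3, 12701 and 16969.9 CPM in 61K/K tumours and 7151, 7864 and 14479 CPM in 61R/R tumours. Its log2 fold change of 0.50 ± 0.21 missed the threshold (SE, adjusted p = 0.774). In 61L/L and 61H/H it came to 0.29 ± 0.21 and 0.092 ± 0.21.

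Among fibrillar chains the smallest p in the joint test belonged to Col2a1, the chain of cartilage, at an adjusted p of 0.152 by edgeR. It was close to absent, with 0.164, 0.256 and 0.757 CPM in 61H/H and 0.121, 0.256 and 0.574 CPM in 61L/L tumours, against 0.399, 0.739 and 4.02 CPM in 61R/R tumours. The highest 61L/L tumour had 22 reads on it and the highest 61R/R tumour 146. Its log2 fold change against 61R/R was -2.27 ± 0.81 in 61L/L (SE, adjusted p = 0.749) and -2.09 ± 0.81 in 61H/H (adjusted p = 0.188). Of the 6 cartilage and bone markers, 3 had enough reads to be tested. Comp, a cartilage matrix protein, was called lower in 61H/H against 61R/R and against 61K/K, beside 0.761% and 5.07% of all genes. The summed level of the 6 markers was 0.491 to 1.98 CPM in 61H/H and 1.30 to 7.79 CPM in 61L/L, against 1.40 to 6.60 CPM in 61R/R tumours. Ibsp was at 0 in every 61H/H tumour. In 61L/L against 61R/R the 3 tested markers had log2 fold changes from -0.87 to 1.56, and none was called. The part of these markers in the values of Col2a1 was not tested.

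Type IV collagen has 6 genes that lie head to head in pairs, so that each pair is read outward from a shared stretch. In the count table the starts of Col4a1 and Col4a2 are 2 bases apart, those of Col4a4 and Col4a3 71 bases apart, and those of Col4a6 and Col4a5 1342 bases apart. Start windows of RefSeq (build GRCm38.p6, from 250 bases before to 50 bases after a start) are shown for a gene of each of the tighter pairs, because partner levels are compared further on. In the window of Col4a2 (chr8:11312555-11312854, plus strand) capitals mark the 78 bases that the window of Col4a1 also holds, and in the window of Col4a4 (chr1:82586800-82587099, minus strand) the 71 bases between the Col4a4 and Col4a3 starts of the count table.
Col4a2: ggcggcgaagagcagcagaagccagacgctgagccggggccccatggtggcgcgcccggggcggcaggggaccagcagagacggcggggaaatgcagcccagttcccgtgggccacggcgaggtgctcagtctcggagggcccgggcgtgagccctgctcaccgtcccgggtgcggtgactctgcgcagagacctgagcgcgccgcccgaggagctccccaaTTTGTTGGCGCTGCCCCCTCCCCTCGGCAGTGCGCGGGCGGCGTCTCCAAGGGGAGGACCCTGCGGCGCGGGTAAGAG
Col4a4: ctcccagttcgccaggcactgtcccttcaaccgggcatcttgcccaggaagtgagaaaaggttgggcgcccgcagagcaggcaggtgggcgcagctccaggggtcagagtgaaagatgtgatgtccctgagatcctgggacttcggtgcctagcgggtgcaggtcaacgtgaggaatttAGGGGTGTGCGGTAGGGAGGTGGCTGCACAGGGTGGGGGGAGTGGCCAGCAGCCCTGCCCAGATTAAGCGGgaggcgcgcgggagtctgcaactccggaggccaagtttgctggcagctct

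Col4a4 was the 1 basement membrane chain called. Its product joins those of Col4a3 and Col4a5 in the network of kidney, lung, eye and inner ear. It had 6.41, 24.6 and 34.0 CPM in the lowest, the median and the highest 61H/H tumour, against 3.34, 6.91 and 11.1 CPM in 61R/R tumours. Of the 61H/H tumours 5 of 6 stood above the highest 61R/R tumour, and replicate 4, the lowest, stood within the range of 61R/R. The log2 fold change was 1.71 ± 0.45 (SE, adjusted p = 0.0478), just inside the threshold. In 61L/L tumours Col4a4 had 9.90, 13.7 and 28.1 CPM, with 5 of 6 above the highest 61R/R tumour as well, but 1.23 ± 0.44 did not pass the test (adjusted p = 0.749). In 61K/K tumours it had 5.99, 7.63 and 31.1 CPM, where 2 tumours stood apart at 25.9 and 31.1 CPM. Between 61H/H and 61K/K it differed by 0.70 ± 0.44 (adjusted p = 0.318). The call was lost, at 1.54 (adjusted p = 0.0987), within the 18 libraries of 1 column style, and with DESeq2 size factors, no filter, the stricter filter or the 12 libraries compared (adjusted p = 0.0546, 0.0610, 0.0504 and 0.0678). It was also lost when any of 20 of the 24 libraries was left out, with adjusted p up to 0.124. The 4 libraries that could be left out were 61K/K replicates 1, 3 and 4 and 61H/H replicate 4.

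Its neighbour Col4a3 was not called, at 0.84 ± 0.53 in 61H/H against 61R/R (adjusted p = 0.499), with 1.05, 5.03 and 6.47 CPM in 61H/H and 1.38, 1.75 and 4.45 CPM in 61R/R tumours. The chains of the common basement membrane network had small log2 fold changes. Col4a1 (chromosome 8, 11198423 to 11312826) had 2884, 3278 and 4616 CPM in 61K/K, 2190.4, 3385 and 3995 CPM in 61L/L, 1896, 2834 and 4472 CPM in 61H/H and 2257, 2657 and 3809 CPM in 61R/R tumours. Against 61R/R it came to 0.33 ± 0.20, 0.22 ± 0.20 and 0.097 ± 0.20 in 61K/K, 61L/L and 61H/H. Col4a2 (chromosome 8, 11312829 to 11449287) came to 0.29 ± 0.20, 0.33 ± 0.20 and 0.20 ± 0.20 in the same comparisons. None passed the test, and the 95% intervals of these 6 values lay between -0.32 and 0.75. Col4a5 and Col4a6, the pair on chromosome X, were not called either. Against 61R/R, all 6 type IV genes had a log2 fold change above 0 in 61L/L and in 61H/H, and 5 of 6 in 61K/K. The shares of all genes above 0 were 48.6%, 51.5% and 51.6% in the same order. These comparisons share the 61R/R tumours, and the genes of each pair varied together, so the signs are not independent.

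The 6 beaded filament chains of type VI were called neither by edgeR nor by DESeq2 in any comparison, and 0 of them had an unadjusted p under 0.05 in 61H/H against 61R/R or 61K/K. Col6a1 (chromosome 10, 76708792 to 76726044), a chain of every type VI filament, had 995, 1535 and 1894 CPM in 61H/H and 1041, 1221 and 1843 CPM in 61R/R tumours, so that the log2 fold change came to 0.20 ± 0.15 (SE, adjusted p = 0.595). In 61K/K and 61L/L it came to 0.19 ± 0.15 and 0.24 ± 0.15, with intervals of -0.13 to 0.51 and -0.078 to 0.56. Col6a3, the longest chain of the filament (chromosome 1, 90766860 to 90843971), varied more, with 589, 2078 and 2456 CPM in 61K/K, 811, 1631 and 2073 CPM in 61L/L, 559, 1314 and 1746 CPM in 61H/H and 694, 1048 and 2139 CPM in 61R/R tumours. Its log2 fold change of 61K/K against 61R/R was 0.53 ± 0.34 (adjusted p = 0.774), and that of 61H/H was -0.080 ± 0.34, or 0.083 within the 18 libraries. Col6a5, a chain that can take the place of Col6a3, had the smallest p of this class in the joint test (adjusted p = 0.510). It spread from 2.45 to 270.1 CPM, and in 61L/L tumours it had 60.6, 144 and 247 CPM, against 2.45, 33.5 and 140.3 CPM in 61R/R tumours, a log2 fold change of 1.47 ± 0.82 (adjusted p = 0.934).

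Among the fibril-associated chains, Col9a2, which encodes a chain of type IX collagen, known from cartilage and the eye (chromosome 4, 121039566 to 121055325), was called higher in 61H/H against both 61R/R and 61K/K. It had 0.357, 2.28 and 5.30 CPM in 61H/H tumours, 0.206, 0.816 and 1.45 CPM in 61K/K tumours and 0.418, 0.595 and 0.827 CPM in 61R/R tumours. These are low levels: its reads ran from 14 to 182 in 61H/H, from 8 to 56 in 61K/K and from 14 to 30 in 61R/R libraries. Of the 61H/H tumours 5 of 6 stood above the highest tumour of 61R/R and of 61K/K, and the sixth, replicate 4, stood below the lowest 61R/R tumour. The log2 fold change was 2.21 ± 0.53 against 61R/R (SE, adjusted p = 0.0335) and 1.76 ± 0.52 against 61K/K (adjusted p = 0.0362). In 61L/L tumours it had 0.653, 0.818 and 1.82 CPM, and 61H/H stood 1.43 ± 0.52 above them, which did not pass the test (adjusted p = 0.353).

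Both calls of Col9a2 ended within the 18 libraries of 1 column style, at 1.83 against 61R/R (adjusted p = 0.113) and 1.35 against 61K/K (adjusted p = 0.249), and in fits of the 12 libraries compared (adjusted p = 0.0773 and 0.139). The call against 61R/R was lost without 61H/H replicate 1, 2, 5 or 6 or 61R/R replicate 1, 2, 3 or 5, with adjusted p up to 0.107. The call against 61K/K was lost without 61K/K replicate 2, 3, 5 or 6 or 61H/H replicate 1, 5 or 6, with adjusted p up to 0.106. Col9a3, its partner chain, was not called, at 0.78 ± 0.40 against 61R/R (adjusted p = 0.349), and the third type IX chain, Col9a1, had at most 27 reads in a library.

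**Figure D4:**
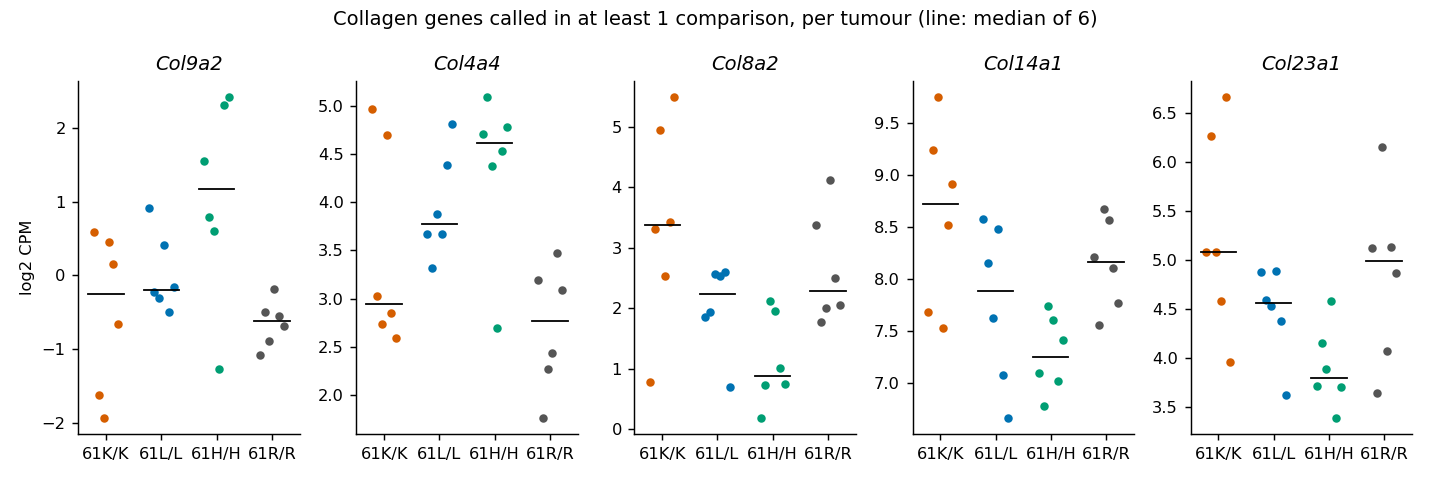
Log2 CPM (vertical axis) of the 5 collagen genes called in at least 1 comparison, per tumour and genotype, with the median of 6 as a line. The lone low 61H/H point of Col9a2 and of Col4a4 is replicate 4, and the 61H/H points of Col8a2, Col14a1 and Col23a1 lie mostly under those of 61K/K.

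Col14a1, which encodes a chain on the surface of dermal collagen fibrils (chromosome 15, 55307750 to 55520803), was called lower in 61H/H against 61K/K. It had 109, 153 and 213 CPM in 61H/H tumours, against 184, 424 and 858 CPM in 61K/K tumours. Of the 61H/H tumours 4 of 6 lay below the lowest 61K/K tumour and the other 2 lay within the range of 61K/K. The log2 fold change was -1.50 ± 0.36 (SE, adjusted p = 0.0137), and the call stood whichever library was left out, with adjusted p up to 0.0495. Within the 18 libraries it came to -1.31 (adjusted p = 0.0737). In 61R/R tumours Col14a1 had 187, 285 and 407 CPM, and 61H/H against 61R/R came to -0.89 ± 0.35 (adjusted p = 0.208). In 61L/L tumours it had 101, 240 and 381 CPM, and 0 of 6 of the 61H/H tumours lay below the lowest of these. Col20a1 was not called by edgeR, although 61H/H tumours had 790.3, 2084 and 5020.3 CPM and 61R/R tumours 209.6, 405 and 1458 CPM, a log2 fold change of 1.82 ± 0.63 (adjusted p = 0.130). DESeq2 did call it in that comparison and against 61K/K.

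Network chains form the hexagonal lattices of vessel walls and of the cornea. Col8a2, the alpha 2 chain of type VIII (chromosome 4, 126286794 to 126314330), was the collagen gene with the smallest p in the joint test (adjusted p = 0.0358), where Col9a2 followed (adjusted p = 0.0435). The joint call of Col8a2 was lost when any of 12 of the 24 libraries was left out, and that of Col9a2 when any of 20 was (adjusted p up to 0.100 and 0.163). Col8a2 had 1.08, 1.80 and 4.29 CPM in 61H/H tumours, 1.66, 10.3 and 45.0 CPM in 61K/K tumours, 1.57, 4.75 and 5.98 CPM in 61L/L tumours and 3.37, 4.86 and 17.4 CPM in 61R/R tumours. In 61K/K tumours it spread widely: replicates 3 and 6 stood at 30.8 and 45.0 CPM and replicate 1 at 1.66 CPM. Of the 61H/H tumours 3 of 6 lay below the lowest 61K/K tumour. The log2 fold change of 61H/H against 61K/K was -2.85 ± 0.62 (SE, adjusted p = 0.00945), and the call stood whichever library was left out (adjusted p up to 0.0295). Replicates 1, 3 and 6 of 61K/K, its lowest and its 2 highest tumours for Col8a2, are of the rarer column style, and within the 18 libraries the value was -1.79 (adjusted p = 0.0764). Against 61R/R, Col8a2 came to -1.64 ± 0.60 in 61H/H (adjusted p = 0.160) and 1.21 ± 0.59 in 61K/K (adjusted p = 0.774).

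Both genes called in the joint test lie on chromosome 4, and their start windows are shown to set them side by side: Col9a2 at chr4:121039316-121039615 and Col8a2 at chr4:126286544-126286843, both on the plus strand and from RefSeq, GRCm38.p6. Capitals mark every match on either strand to 4 motifs, which were the TATA box letters TATAAA, the letters CCAAT known to bind NF-Y, the letters GGGCGG known to bind Sp1 and the letters ACAAAG known to bind Sox factors.
Col9a2: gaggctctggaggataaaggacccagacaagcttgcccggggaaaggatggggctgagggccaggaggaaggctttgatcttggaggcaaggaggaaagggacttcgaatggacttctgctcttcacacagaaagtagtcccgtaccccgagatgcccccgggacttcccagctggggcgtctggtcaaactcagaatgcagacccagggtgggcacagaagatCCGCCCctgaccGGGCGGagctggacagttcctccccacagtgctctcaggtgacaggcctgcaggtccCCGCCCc
Col8a2: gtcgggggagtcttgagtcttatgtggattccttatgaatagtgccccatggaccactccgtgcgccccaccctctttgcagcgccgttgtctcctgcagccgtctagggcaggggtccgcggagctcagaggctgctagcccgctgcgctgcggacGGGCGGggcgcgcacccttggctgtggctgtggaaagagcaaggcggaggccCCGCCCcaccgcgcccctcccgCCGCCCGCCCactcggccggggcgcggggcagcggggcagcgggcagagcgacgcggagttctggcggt
All matches in both windows were to GGGCGG or, on the other strand, CCGCCC: 3 in Col9a2 and 4 in Col8a2, of which 2 overlap each other. At least 1 such match stood in 23 of the 38 windows of collagen genes and in 35.7% of all start windows in RefSeq. CCAAT stood in 13 of the 38, beside 37.4% of all windows, TATAAA in 5, beside 13.6%, and ACAAAG in 5, beside 18.7%. These are letter matches in 300 bases, for 35 of the 44 genes, and say nothing of binding.

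Col8a1, the partner of Col8a2 and named here after its values were seen, had 53.0, 77.3 and 641 CPM in 61H/H tumours, against 68.5, 711 and 1548 CPM in 61K/K tumours. The 5 lower 61H/H tumours lay at 90.3 CPM or less and replicate 4 at 641 CPM. The log2 fold change of -2.08 ± 0.74 did not pass the test (adjusted p = 0.0755). DESeq2 called it in this comparison and in the joint test. Without replicate 4 of 61H/H, singled out here by its high value, Col8a1 was called by edgeR against both 61K/K and 61R/R. Col10a1, the third network chain and a product of growth plate cartilage, came to 0.20 ± 0.42 in the same comparison.

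Of the 4 transmembrane chains, edgeR called 1, Col23a1, lower in 61H/H against 61K/K (chromosome 11, 51289920 to 51583925). It had 10.4, 13.9 and 23.8 CPM in 61H/H tumours, against 15.5, 33.8 and 101 CPM in 61K/K tumours, and 4 of 6 of the 61H/H tumours lay below the lowest 61K/K tumour. The log2 fold change was -1.62 ± 0.42 (SE, adjusted p = 0.0200). It was the 1 collagen gene still called within the 18 libraries, at -2.08 (adjusted p = 0.0372), while the call was lost without 61K/K replicate 5 or 61H/H replicate 1 or 5 (adjusted p up to 0.0563) and in a fit of the 12 libraries compared (adjusted p = 0.0559). In 61R/R tumours Col23a1 had 12.4, 31.9 and 71.2 CPM, and 61H/H against 61R/R came to -1.10 ± 0.41 (adjusted p = 0.173). In 61L/L tumours it had 12.2, 23.5 and 29.6 CPM, and 1 of 6 of the 61H/H tumours lay below the lowest of these. DESeq2 also called Col25a1, a chain of neurons named here after its values were seen, in 61H/H against 61K/K. It had 0.485, 1.26 and 2.85 CPM in 61H/H and 0.206, 0.565 and 0.839 CPM in 61K/K tumours, 4 of 6 of the 61H/H tumours lay above the highest 61K/K tumour, and by edgeR the log2 fold change of 1.37 ± 0.49 did not pass (adjusted p = 0.0762).

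Other cell markers moved in the same comparison as Col8a2, Col14a1 and Col23a1. Between 61H/H and 61K/K, 9.36% of all genes tested were called (5.07% lower and 4.29% higher), and the marker counts below stand beside these shares. Here 4 of 8 fibroblast markers were called lower (Pdgfra, Thy1, Dpt and Pi16), and the median log2 fold change of the 8 was -0.85. Their summed level was 4822 to 8375 CPM in 61H/H and 2907 to 13538 CPM in 61K/K tumours, most of it from Postn, which was not called, at 4210.2, 6054 and 7789 CPM in 61H/H and 2178, 5391 and 12719 CPM in 61K/K tumours. Of 6 leukocyte markers 2 were called lower (Ptprc and Csf1r), at a summed 177 to 273 CPM in 61H/H and 226 to 959 CPM in 61K/K tumours. Of 6 endothelial markers Tek was called lower, at a summed 201 to 503 CPM in 61H/H and 226 to 925 CPM in 61K/K tumours, and of 5 adipocyte markers Pparg was called lower, at a summed 1.75 to 47.6 CPM in 61H/H and 10.8 to 731 CPM in 61K/K tumours. Among 6 melanocyte markers Sox10 was called higher, at 485, 539 and 1049 CPM in 61H/H and 109.7, 266 and 344 CPM in 61K/K tumours. It took most of their sum, which was 513 to 1107 CPM in 61H/H and 157 to 434 CPM in 61K/K tumours. The median log2 fold change of the 6 was -0.13, and Pmel, Dct, Tyr and Mlana, which were not called, had lower medians in 61H/H, such as 2.74 CPM of Dct in 61H/H and 10.7 CPM in 61K/K tumours. None of the fibroblast, leukocyte, endothelial, adipocyte and melanocyte markers was at 0 in every tumour of a genotype. None of the 6 pericyte and smooth muscle markers and none of the 6 skeletal muscle markers was called. DESeq2 called 15 of the markers here, where edgeR called 10 of the 52 tested, beside 9.36% of all genes. The part of these markers in the collagen results was not tested. Against 61R/R, where Col4a4 and Col9a2 were called, 1 of the 52 markers tested was called by edgeR in 61H/H, beside 2.02% of all genes. It was Comp, which was lower. DESeq2 called Comp and the leukocyte marker Ptprc, which had 19.9, 37.1 and 70.2 CPM in 61H/H and 52.4, 103 and 152 CPM in 61R/R tumours, and its part in the calls of Col4a4 and Col9a2 was not tested. Ptprc encodes CD45, and by staining of tumour sections for that protein the study reported no difference in immune infiltration between genotypes. In its own RNA data for the same comparison, the study reported transcripts of immune pathways as enriched in tumours of the parent line. The Ptprc values above lie in that direction. By staining, the study described lower infiltration as not consistent among the histidine tumours.

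Col17a1 is the transmembrane chain that fixes basal keratinocytes to the basement membrane (chromosome 19, 47646341 to 47692042). Its level varied widely within each genotype, with 1.53, 156 and 454 CPM in 61K/K, 4.45, 249 and 320.5 CPM in 61L/L, 4.40, 34.7 and 232 CPM in 61H/H and 2.77, 31.3 and 284 CPM in 61R/R tumours. Against 61R/R the log2 fold change was 0.90 ± 1.25 in 61K/K, 0.93 ± 1.26 in 61L/L and -0.39 ± 1.25 in 61H/H (SE), with adjusted p of 0.868, 0.996 and 0.927. Keratinocyte markers spread in the same way: the summed level of all 6 ran from 4.23 to 6657 CPM in 61K/K, 3.62 to 3477 CPM in 61L/L, 4.31 to 2533 CPM in 61H/H and 3.76 to 3681 CPM in 61R/R tumours. None of the 6 was called in any comparison or was at 0 in every tumour of a genotype. The relation of Col17a1 with 1 of them, Krt14, is given further on, and beyond it their part in the level of Col17a1 was not tested. Col7a1, which forms the anchoring fibrils under the epidermis, ran from 2.42 to 209 CPM over all tumours and was not called in any comparison.

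Col18a1, a multiplexin of vessel and epithelial basement membranes whose end fragment is endostatin (chromosome 10, 77052179 to 77166530), had 506, 839 and 1016 CPM in 61K/K, 466, 715 and 1304 CPM in 61L/L, 499, 689 and 1650.5 CPM in 61H/H and 449.5, 725 and 976 CPM in 61R/R tumours. Its log2 fold change against 61R/R was 0.14 ± 0.29, 0.094 ± 0.29 and 0.14 ± 0.29 in 61K/K, 61L/L and 61H/H, with an adjusted p of at least 0.884 in each. The top 61H/H tumour was again replicate 4, and without it the 61H/H value was -0.24. Col15a1, the other multiplexin, was not called. Col26a1 was named after its values were seen: in 61H/H it had 1.43, 13.0 and 26.7 CPM, against 0.338, 0.613 and 15.6 CPM in 61R/R tumours, a log2 fold change of 2.05 ± 1.20 that did not pass the test (adjusted p = 0.447). A single 61R/R tumour stood at 15.6 CPM and the other 5 at 1.40 CPM or less.

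Chains that share a molecule were also compared as ratios of reads per kilobase within each tumour. Type I collagen is built from more alpha 1 than alpha 2 chains, and Col1a1 over Col1a2 had a lowest, median and highest ratio of 1.56, 1.74 and 2.09 in 61K/K, 1.33, 1.61 and 2.01 in 61L/L, 1.15, 1.38 and 2.64 in 61H/H and 1.75, 1.92 and 2.34 in 61R/R tumours. The mean log2 ratio differed from that of 61R/R by -0.16 in 61K/K, -0.28 in 61L/L and -0.39 in 61H/H, with two-sided exact permutation p of 0.175, 0.0411 and 0.0909. Adjusted over the 9 ratio tests, each was 0.335, so none held. Of the 61H/H tumours 4 of 6 had a ratio below the lowest of 61R/R, while replicate 4 had the highest of all 24 tumours. Without replicate 4 the 61H/H difference was -0.55 and passed the adjusted test (adjusted p = 0.0390, exact permutation). That tumour is singled out by its own extreme ratio, so this value cannot serve as a test of the genotype. The part of the shift of chromosome 6, given above, was not tested here either.

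Col3a1 over Col1a1 had ratios of 0.860, 0.941 and 1.49 in 61K/K, 0.748, 1.05 and 1.29 in 61L/L, 0.640, 1.15 and 2.04 in 61H/H and 0.712, 0.868 and 1.16 in 61R/R tumours. The log2 differences from 61R/R were 0.26, 0.18 and 0.40 in 61K/K, 61L/L and 61H/H, with adjusted p of 0.335, 0.381 and 0.335 (exact permutation). Without 61H/H replicate 4, which had the lowest ratio of all tumours, the last came to 0.57 (adjusted p = 0.0390), with the same limit as above. Both ratios hold Col1a1, and these were the only 2 ratio tests that passed when a library was left out. Col4a1 over Col4a2 was the steadiest, at 1.33, 1.46 and 1.75 in 61K/K, 1.10, 1.40 and 1.57 in 61L/L, 1.17, 1.38 and 1.53 in 61H/H and 1.33, 1.46 and 1.58 in 61R/R tumours, and no difference passed (adjusted p of at least 0.381, exact permutation). With 6 tumours against 6 the smallest p this test can give is 0.0022.

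Partner genes were then followed over the 24 tumours, with 9 relations of log2 CPM tested by permutation and adjusted over the 9. The points are libraries, so both genes of a pair share depth and scaling. The head-to-head pair Col4a1 and Col4a2 had a Pearson r of 0.91 and a Spearman rho of 0.93 (raw permutation p = 1e-05 for both, the smallest that 100000 permutations can give, adjusted 4.5e-05). It was 0.90 without the 2 tumours farthest from the median of Col4a1, and within genotypes it ran from 0.93 to 0.95. The second such pair, Col4a3 and Col4a4, had r = 0.68 and rho = 0.68 (permutation p = 0.00046 and 0.0004, adjusted 0.00062 and 0.0006), 0.63 without the 2 farthest tumours, 0.55 to 0.77 within genotypes and 0.56 within the 18 libraries. Col4a5 and Col4a6 had r = 0.66 and rho = 0.66 (permutation p = 0.00048 and 0.00056, adjusted 0.00062 and 0.00063), 0.63 without the 2 farthest, 0.35 to 0.92 within genotypes and 0.71 within the 18 libraries. For Col4a1 and Col4a2 the last was 0.91.

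Col1a1 and Col1a2, on different chromosomes, had r = 0.78 and rho = 0.83 (permutation p = 2e-05 for both, adjusted 6e-05), 0.72 without the 2 farthest and 0.82 to 0.87 within genotypes. Col1a1 and Col3a1 had r = 0.64 and rho = 0.69 (permutation p = 0.00074 and 0.00025, adjusted 0.00083 and 0.00054), 0.61 without the 2 farthest and 0.49 to 0.90 within genotypes. For Col6a1 and Col6a2 the values were r = 0.71 and rho = 0.70 (permutation p = 0.0002 and 0.0003, adjusted 0.00036 and 0.00054), 0.68 without the 2 farthest and 0.15 to 0.87 within genotypes, lowest in 61K/K. Within the 18 libraries of 1 column style the r of these 3 pairs was 0.75, 0.79 and 0.77.

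Collagen genes were also set against a marker of the cells known to make them. Col17a1 followed Krt14, the keratin of basal keratinocytes, most closely, with r = 0.95 and rho = 0.96 (permutation p = 1e-05 for both, adjusted 4.5e-05). It was 0.94 without the 2 farthest tumours and 0.92 to 0.99 within genotypes. Col4a1 and Cdh5, the cadherin of endothelium, had r = 0.69 and rho = 0.67 (permutation p = 0.00017 and 0.00047, adjusted 0.00036 and 0.0006), 0.62 without the 2 farthest and 0.65 to 0.91 within genotypes. Col1a1 and Pdgfra, a receptor of fibroblasts, had the weakest of the 9 relations, with r = 0.43 and rho = 0.45 (permutation p = 0.0337 and 0.0296, adjusted 0.0337 and 0.0296), 0.49 without the 2 farthest. Within genotypes its r ran from -0.0080 in 61H/H to 0.71 in 61R/R, so it did not hold in each. Within the 18 libraries the r of the 3 marker relations was 0.97, 0.58 and 0.47.

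**Figure D5:**
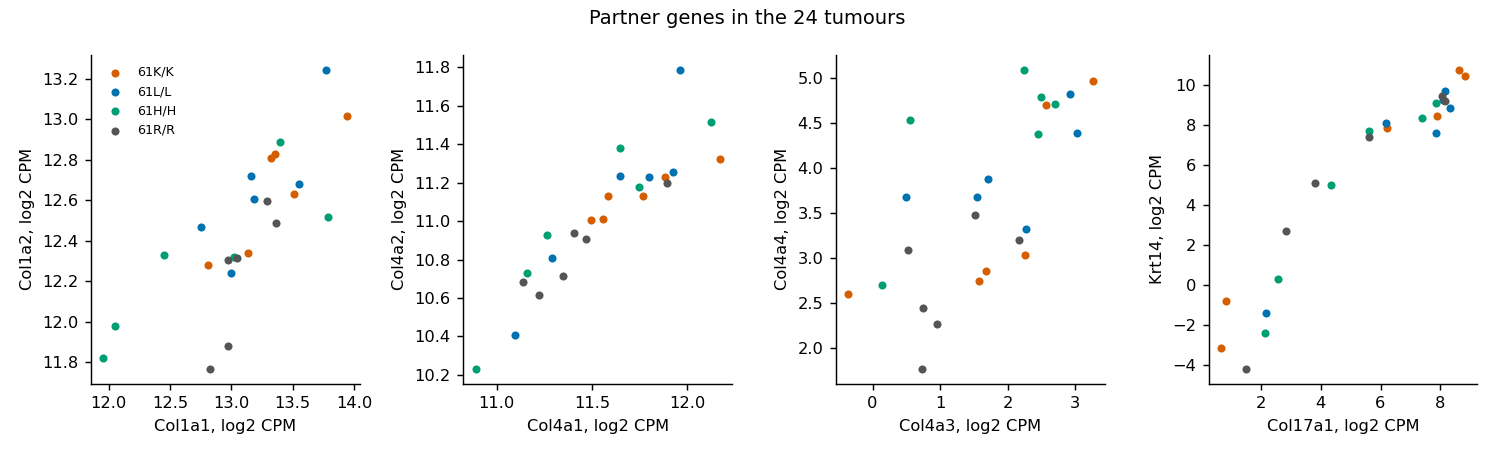
Log2 CPM of 4 gene pairs in the 24 tumours, a point per tumour, coloured by genotype (axes, log2 CPM of the genes named). Col4a1 and Col4a2 follow each other tightly (r = 0.91), Col17a1 spans a wide range together with Krt14 (r = 0.95), and Col1a1 with Col1a2 and Col4a3 with Col4a4 scatter more (r = 0.78 and 0.68).

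Collagen is hydroxylated and folded in the endoplasmic reticulum, trimmed outside the cell, crosslinked, bound by receptors and broken down. Of 54 genes of these steps 52 were tested. Against 61R/R, 0 were called by edgeR and by DESeq2 in 61K/K and in 61L/L tumours, with 4 and 2 at an unadjusted p under 0.05, beside 5.15% and 5.55% of all genes. Against the same tumours 1 of 52 was called by edgeR in 61H/H, beside 2.02% of all genes, and DESeq2 called 2, this gene and Tll1. The gene was Itga11, the integrin chain by which fibroblasts grip fibrillar collagen. It had 4.07, 6.98 and 11.2 CPM in 61H/H and 8.83, 17.7 and 29.9 CPM in 61R/R tumours, and the groups overlapped. The log2 fold change was -1.35 ± 0.34 (SE, adjusted p = 0.0415).

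Between 61H/H and 61K/K, 8 of the 52 were called by edgeR, 7 lower and 1 higher, beside 9.36% of all genes (5.07% lower and 4.29% higher). DESeq2 called 9. None of the 19 genes of hydroxylation and folding was among them, and DESeq2 called none of these either. Of 7 genes of procollagen cleavage tested 2 were lower: Tll1, a protease of the BMP1 family, at -1.32 ± 0.37, and Pcolce, an enhancer of procollagen cleavage, at -0.73 ± 0.22 (log2 fold changes with SE, adjusted p = 0.0292 and 0.0381). Of 11 genes of crosslinking and fibril organisation Bgn, the proteoglycan biglycan, was lower, at 658, 924 and 1559 CPM in 61H/H and 1414, 1894 and 2551 CPM in 61K/K tumours (log2 fold change -1.0, adjusted p = 0.0106). Of 9 receptor and uptake genes tested Itga11 (-1.74 ± 0.35) and Mrc2, the receptor that takes up cleaved collagen (-0.97 ± 0.21), were lower, with adjusted p of 0.00643 and 0.00907. Itga2, a collagen receptor chain of epithelia and platelets, was higher, at 64.7, 120.1 and 232 CPM in 61H/H and 27.3, 50.4 and 95.9 CPM in 61K/K tumours (1.32 ± 0.36, adjusted p = 0.0236). Of 6 genes of breakdown Ctsk, cathepsin K (-1.30 ± 0.30, adjusted p = 0.0121), and Mmp8, the neutrophil collagenase (-2.38 ± 0.76, adjusted p = 0.0499), were lower. Mmp8 was close to absent, at 0, 0.0564 and 1.07 CPM in 61H/H tumours. The lower fibroblast and leukocyte markers given above moved in the same comparison, and their part in these values was not tested.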

How the data were processed

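The authors deposited whole-number counts of reads on each gene, made on mm10 and left without normalization. Their methods and processing notes name STAR, Picard 2.17.11 and featureCounts, while a strand setting for counting was not found there, so reads on overlapping genes cannot be assigned. Ribosomal RNA was depleted and stranded libraries were made, although the labels name polyA RNA. Depth was 31.9 to 43.8 M reads per library, and chi-square per degree of freedom between libraries of 1 genotype was at least 68.3, so each was kept. The study describes its tumour replicates as biological and its in vivo samples as individual mice, but the labels tie no library to a mouse, so each p-value reflects the spread from tumour to tumour. The study's figure legend for tumour RNA sequencing names fewer replicates per genotype than the 6 libraries used here.

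From the deposited counts, genes were filtered with filterByExpr (17214 kept), scaled by TMM and tested with the robust quasi-likelihood F-test of edgeR 4.0.16 in R 4.3.3, in 1 fit of 24 libraries, with Benjamini-Hochberg adjustment over all genes. The SE is the absolute log2 fold change over the square root of F, and log2 CPM used a prior count of 2. Ratios used exact permutation tests and relations 100000 permutations (numpy and scipy). Alternatives were DESeq2 1.42.0, DESeq2 size factors, no filter or at least 1 CPM in 6 libraries, the 12 libraries compared, column style as covariate or only its 18 libraries, title code as covariate (with 61H/H left out, whose code is its genotype), leaving out each library, and medians for ratios.

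The collagen genes, their classes and the pathway and marker lists were chosen with earlier results of these data known. Named were collagen genes called in any comparison, 9 always (Col1a1, Col1a2, Col3a1, Col4a1, Col4a2, Col6a1, Col6a3, Col17a1 and Col18a1), and the smallest joint p in each class of at least 3 tested genes. Exposure to ultraviolet light and title codes were not used as groups.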

Additional observations from a re-analysis of the deposited data

Results flagged for a closer look

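Log2 CPM of 16 named collagen genes was searched for a tumour far from the other 5 of its genotype, in 64 groups of 6, where chance flags about 1 in 20 groups. There were 5 such flags, and 61H/H replicate 4 was flagged for more than 1 gene. Among 61H/H tumours, replicate 4 stood at 10.69 for Col18a1, above the others at 8.96 to 9.51, and at 2.69 for Col4a4, below the others at 4.38 to 5.09. In 61K/K tumours, replicate 3 stood at 10.24 for Col6a1, below 10.52 to 10.65, and replicate 6 at 9.20 for Col6a3, below 10.72 to 11.26. In 61L/L tumours, replicate 1 stood at 2.17 for Col17a1, below 6.19 to 8.32.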

How the results depend on the processing

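Counts of collagen genes called stayed at 0 in 61K/K and in 61L/L against 61R/R, in 61H/H against 61L/L and in 61L/L against 61K/K under every alternative run. The share of all genes called under each alternative is not set beside the counts that follow. They therefore show how the calls move, and not whether collagen genes stand out from other genes. For 61H/H against 61R/R the count of 2 became 1 with DESeq2 size factors, without a filter and with the stricter filter (Col9a2 in each), 3 by DESeq2 (Col20a1, Col4a4 and Col9a2), 0 within the 18 libraries of 1 column style and 0 in a fit of the 12 libraries compared, and ran from 0 to 3 when a library was left out. It was 0 without 61H/H replicate 1, 2, 5 or 6 or 61R/R replicate 1, 2, 3 or 5, and 3 without 61H/H replicate 4. Between 61H/H and 61K/K the count of 4 became 8 by DESeq2, 1 within the 18 libraries and 2 in the 12 libraries (Col14a1 and Col8a2), and ran from 2 to 6 (2 without 61K/K replicate 5 or 61H/H replicate 1 or 5, and 6 without 61K/K replicate 4 or 61H/H replicate 4). In the joint test the count of 2 became 7 by DESeq2, 1 without a filter, 1 with column style as covariate and 0 within the 18 libraries, and ran from 0 to 4 (0 without 61K/K replicate 2, 3 or 5, 61L/L replicate 2 or 4, 61H/H replicate 1, 2, 5 or 6 or 61R/R replicate 3 or 5, and 4 without 61H/H replicate 4). Leaving out a library gave a log2 ratio difference of -0.21 to -0.11 in 61K/K, -0.34 to -0.22 in 61L/L and -0.55 to -0.31 in 61H/H for Col1a1 to Col1a2, of 0.16 to 0.34, 0.10 to 0.26 and 0.23 to 0.57 for Col3a1 to Col1a1, and of -0.014 to 0.065, -0.11 to -0.0054 and -0.13 to -0.048 for Col4a1 to Col4a2 in the same genotypes, each against 61R/R (negative in 61K/K without 61K/K replicate 3 for the last). Within the 18 libraries the 61K/K differences changed sign for Col1a1 to Col1a2 (0.017) and Col4a1 to Col4a2 (-0.019). Small values of uncalled genes changed sign as well. Within the 18 libraries these were Col1a1 (0.025) and Col6a3 (0.083) in 61H/H against 61R/R. When a library was left out, the same comparison ran from -0.068 to 0.14 for Col1a2 (negative without 61H/H replicate 3 or 61R/R replicate 4), -0.063 to 0.24 for Col3a1 (negative without 61H/H replicate 3), -0.089 to 0.18 for Col4a1 and -0.24 to 0.24 for Col18a1 (both negative without 61H/H replicate 4), -0.23 to 0.087 for Col6a3 (positive without 61H/H replicate 5 or 61R/R replicate 3 or 5) and -1.09 to 0.19 for Col17a1 (positive without 61R/R replicate 1 or 5). In 61L/L against 61R/R, Col18a1 ran from -0.12 to 0.20 (negative without 61L/L replicate 1 or 61R/R replicate 4). Smaller fits test fewer tumours, and beyond that the cause was not tested. No paired analysis was possible because replicate numbers follow the order of the accessions and pair no tumours. Genes of a few reads, such as Col9a2, Col2a1 and Col9a1, are limited by depth.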
